A study of Danio rerio with 18 samples.

Results

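The stress response of susceptible zebrafish larvae was compared with that of resilient larvae, using all 18 libraries of the study. Each library held the RNA of 1 whole larva, labelled as wild type of the AB strain. The groups were 5 susceptible stressed larvae, 4 susceptible basal larvae, 5 resilient stressed larvae and 4 resilient basal larvae. All larvae were sorted into the susceptible or the resilient archetype at 6 dpf (days post fertilization) and collected at 7 dpf. Stressed larvae were taken 30 min after a stress of 5 min and basal larvae had no such stress. The sources used here do not name the kind of stress, the measure used for sorting or the clutch of each larva, and a larva's archetype rests on that sorting alone.

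The quantity described is a difference of 2 log2 fold changes. The response of an archetype is its stressed larvae over its basal larvae, and the difference of responses is the susceptible response minus the resilient response. A positive difference means that stress went with more RNA, or with a smaller loss, in susceptible than in resilient larvae. Levels are in CPM, read counts scaled to library size with TMM factors. Stressed and basal larvae were different animals, so a difference between archetypes in the basal state enters the value as much as one after stress. RNA came from whole animals, so fewer cells of a type and less RNA per cell cannot be told apart for any gene below.

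A threat starts several processes in a fish larva at different speeds. Neurons and other cells switch on immediate early genes within minutes, and the hypothalamus, pituitary and interrenal gland release cortisol, which acts on gene expression through its receptor. Cytokines of the interleukin 6 family signal through the shared receptor chain gp130, which activates Stat3, and Stat3 induces the inhibitor Socs3. Complement is a cascade of plasma proteins made largely by the liver: it is amplified at C3, releases the anaphylatoxin C5a, which acts on leukocytes through C5ar1, and ends in a membrane pore that contains C7 and C9.

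Library totals ranged from 8452595 to 23801175 reads and 22038 genes were tested. On the first principal component, which held 17.3% of the variance, the 5 resilient stressed larvae scored 16.6 to 57 and the other 13 larvae scored -34.5 to 3.92. Resilient stressed larvae 2 and 3 stood apart at 53.7 and 57, as did resilient basal larvae 1 and 3 at -32.2 and -34.5 and susceptible basal larva 2 at -31. Markers of fast muscle, neurons, enterocytes, exocrine pancreas, erythrocytes and macrophages were all present in every library, as in whole larvae.

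In this comparison 31 genes were called by edgeR's quasi-likelihood test at a Benjamini-Hochberg adjusted p below 0.05, which is 0.141% of the genes tested. The difference was higher in 15 genes (0.0681% of those tested) and lower in 16 (0.0726%). At an unadjusted p below 0.05 there were 2880 genes, 13.1% of those tested. The higher genes included il6st, stat3 and socs3b of the interleukin 6 pathway, the complement genes c7a and c5ar1, and the genes dysf, tln2a and hspb1. The lower genes included the slow muscle genes tnnt1 and mybpc1 and the metabolic genes pfkfb1, prodha and gls2b. Over all genes the median difference was 0.00 on the log2 scale, with 11150 positive and 10888 negative values.

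In the 15 higher genes the difference ranged from 0.63 to 2.95 on the log2 scale, with susceptible responses of -0.02 to 0.74 beside resilient responses of -2.72 to -0.60. In the 16 lower genes the difference ranged from -2.80 to -0.63, with susceptible responses of -1.60 to -0.04 beside resilient responses of 0.32 to 1.54. In every called gene the estimated basal values added to the difference. None of these genes was itself called between basal larvae (edgeR, adjusted p of 0.627 to 0.966). Susceptible over resilient basal larvae was at -0.64 to -0.17 in the 15 higher genes and 0.11 to 0.95 in the 16 lower genes. Between stressed larvae the same ratio was at 0.36 to 2.32 and -1.85 to -0.42 on the log2 scale. In level, susceptible stressed larvae lay above all susceptible basal larvae in 1 of the 15 higher genes, ftr63, against 1.3% of all genes tested, and below them in 6 of the 16 lower genes, against 1.43%. All resilient stressed larvae lay below all resilient basal larvae in 14 of the 15 higher genes, against 4.36% of all genes. They lay above all resilient basal larvae in 16 of the 16 lower genes, against 4.11% of all genes. The same larvae also chose the genes, so these counts and ranges describe the called genes and test nothing.

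**Figure D1:**
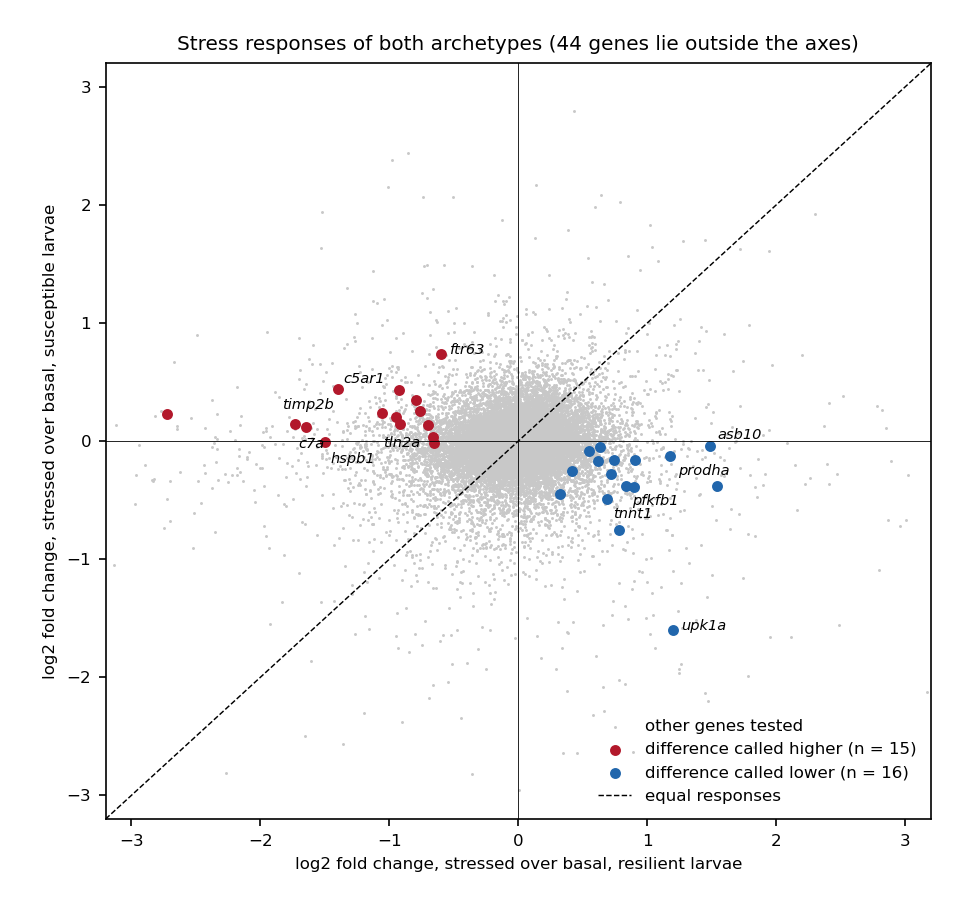
Each point is 1 of the 22038 genes tested, with the log2 response of susceptible larvae up and that of resilient larvae across; 44 genes lie outside the axes. All 31 called genes but upk1a stay between -0.76 and 0.74 on the susceptible axis, while the 15 with a higher difference (red) lie left of zero, at resilient responses of -2.72 to -0.60, and the 16 with a lower difference (blue) lie right of zero, at 0.32 to 1.54.

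Of 17 tested genes of the interleukin 6 pathway 3 were called, against 0.141% of all genes tested. They were il6st, socs3b and stat3, all with a higher difference. This list and the others below were chosen with earlier results of these data known, so such shares are no independent evidence. The gene il6st encodes gp130, the signalling chain shared by receptors of the family. It had 40.2, 44.7, 41.3, 41.5 and 40.3 CPM in susceptible stressed larvae and 39.5, 36.2, 42.9 and 43.8 CPM in susceptible basal larvae. In resilient stressed larvae it had 36, 35, 30.4, 30.4 and 30.1 CPM, against 50.9, 50.2, 48.1 and 55.5 CPM in resilient basal larvae. The susceptible groups overlapped, whereas every resilient stressed larva lay below every resilient basal one. The difference of responses was 0.70 ± 0.10 on the log2 scale (SE, adjusted p = 0.0127), made of a susceptible response of 0.04 and a resilient response of -0.66.

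The transcription factor gene stat3 averaged 101 ± 5.48 CPM in susceptible stressed larvae and 103 ± 7.76 CPM in susceptible basal larvae, against 78.5 ± 8.72 CPM in resilient stressed and 123 ± 10.4 CPM in resilient basal larvae (SD, n = 5 stressed and 4 basal). Its difference was 0.63 ± 0.12 (SE, adjusted p = 0.0459). For socs3b, the feedback inhibitor of the pathway, susceptible stressed larvae had 76.0, 63.3, 67.5, 59.6 and 44.9 CPM and susceptible basal larvae 45.7, 47.8, 55.8 and 59.9 CPM. Resilient stressed larvae had 43.8, 35.7, 41.9, 41.9 and 37.3 CPM, against 68.4, 66.9, 67.6 and 69.6 CPM in resilient basal larvae. The resilient groups were separate and the susceptible groups overlapped, and the difference was 1.01 ± 0.165 (SE, adjusted p = 0.0218). Of the pathway's 17 tested genes the other 14 were not called. The values were positive in 12 of 17, with a median difference of 0.29, against 0.00 over all genes. Unadjusted p was below 0.05 in 8 of the 17, against 13.1% of all genes tested, and DESeq2 called 4, against 2.21%. In fits that each left out 1 of the 18 larvae, il6st stayed called in all 18. The call of socs3b ended in 4, without resilient basal larva 1 or 4 or susceptible basal larva 1 or 3, at adjusted p up to 0.0649. That of stat3 ended in 11, at adjusted p up to 0.104.

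Complement genes had higher differences in c7a and c5ar1. The gene c7a encodes component C7, which anchors the membrane pore. Its level was 23.9, 42.7, 30.2, 30.8 and 26.4 CPM in susceptible stressed larvae and 31.2, 35.7, 23.8 and 22.5 CPM in susceptible basal larvae. It was 16.4, 11.4, 13.8, 8.22 and 12 CPM in resilient stressed larvae, against 39.3, 37.3, 41.8 and 35.9 CPM in resilient basal larvae. Every resilient stressed larva lay below every larva of the other 3 groups. The difference was 1.76 ± 0.26 (SE, adjusted p = 0.0127), from responses of 0.12 in susceptible and -1.64 in resilient larvae. The call ended in 1 of 18 fits, without susceptible basal larva 3, where the adjusted p was 0.05.

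The C5a receptor gene c5ar1 was lowly expressed. It had 3.92, 4.79, 5.52, 7.5 and 5.6 CPM in susceptible stressed larvae and 3.47, 4.28, 3.63 and 4.68 CPM in susceptible basal larvae. It had 2.74, 1.32, 1.5, 1.03 and 2.08 CPM in resilient stressed larvae, against 4.94, 4.47, 4.16 and 4.6 CPM in resilient basal larvae. Resilient stressed larvae were below all others, and the 2 susceptible groups overlapped. The difference was 1.84 ± 0.32 (SE, adjusted p = 0.0404), a call that ended in 9 of 18 fits, at adjusted p up to 0.0967.

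Most complement genes pointed the same way without being called. All 7 tested genes of the terminal pathway were positive, against 11150 of all 22038 genes tested, with a median difference of 0.99. Of the 7, 1 was called, against 0.141% of all genes. All 14 C3 copies and alternative pathway genes were positive, with a median of 1.42 and 0 called by edgeR. Of those 14, 7 had an unadjusted p below 0.05, against 13.1% of all genes tested. DESeq2 called 2 of them, a test that called 2.21% of all genes it tested. Among the 9 receptors and regulators 8 were positive, with a median of 0.58, while the 9 classical and lectin pathway genes were split 5 to 4 with a median of 0.17. Unadjusted p was below 0.05 in 4 terminal, 2 receptor or regulator and 3 classical or lectin genes. DESeq2 called 1, 2 and 0 of them. The series is titled for complement, so these lists were chosen with such a result in view and are no independent evidence of a direction.

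The spread between larvae of a group was wide in c9 and narrow in clu. The pore component gene c9 averaged 715 ± 178 CPM in susceptible stressed and 783 ± 362 CPM in susceptible basal larvae, against 330 ± 153 CPM in resilient stressed and 949 ± 438 CPM in resilient basal larvae (SD). Its difference of 1.39 ± 0.54 had an adjusted p of 0.278. For clu, which encodes the fluid-phase complement inhibitor clusterin, the same 4 groups averaged 93.7 ± 9.48, 93.7 ± 9.53, 63.1 ± 3.5 and 94.3 ± 8.24 CPM. Its difference was 0.58 ± 0.12 at an adjusted p of 0.0579. The factor H-like gene cfhl1 had a difference of 2.54 ± 0.52 (adjusted p = 0.0579), and cfb, the protease of the alternative pathway, one of 1.59 ± 0.56 (adjusted p = 0.232). Reads of the C3 and factor H-like copies may be split between near-identical genes, so the single values of c3a.1 (1.25, adjusted p = 0.401) and cfhl1 are uncertain. The list of acute phase and other liver-secreted genes was split 18 to 15, with a median of 0.18. The separate list of coagulation genes was positive in 15 of 19, with a median of 0.24. Unadjusted p was below 0.05 in 6 of the 33 and 5 of the 19, against 13.1% of all genes tested. The part of liver cell number or liver RNA in the complement values was not tested.

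The metalloproteinase inhibitor gene timp2b had a higher difference, while none of 18 macrophage and microglia markers was called by edgeR. In timp2b the levels were 33.0, 45.1, 31.4, 34.5 and 37.8 CPM in susceptible stressed and 33.3, 30.1, 32.8 and 35.2 CPM in susceptible basal larvae. They were 20.4, 11.7, 11.3, 11.3 and 21.2 CPM in resilient stressed larvae, against 54.8, 34.4, 62.1 and 49.9 CPM in resilient basal larvae. The difference was 1.88 ± 0.29 (SE, adjusted p = 0.0154), and the call ended without susceptible basal larva 3, at 0.0533. The macrophage marker mpeg1.2, a perforin-like gene, had a difference of 2.30 ± 0.49 and an adjusted p of 0.0669. For this gene susceptible over resilient larvae was at -1.16 in the basal state and 1.14 after stress on the log2 scale. Neither was called by edgeR (adjusted p = 0.747 and 0.0637). Of the 18 markers 14 were positive, with a median of 0.58; 10 had an unadjusted p below 0.05, against 13.1% of all genes tested, and 4 were called by DESeq2, against 2.21%. Their summed level was 1440 to 1880 CPM in susceptible stressed larvae and 1560 to 2200 CPM in susceptible basal larvae, against 936 to 1330 CPM in resilient stressed and 1380 to 2630 CPM in resilient basal larvae, so that only the resilient groups were separate. The part of macrophage RNA in the values of c5ar1 was not tested. The 12 neutrophil markers, of which timp2b is also a member and the called one, had a median of 0.10. Unadjusted p was below 0.05 in 2 of the 12 and DESeq2 called 1. Over all genes tested edgeR called 0.141%.

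**Figure D2:**
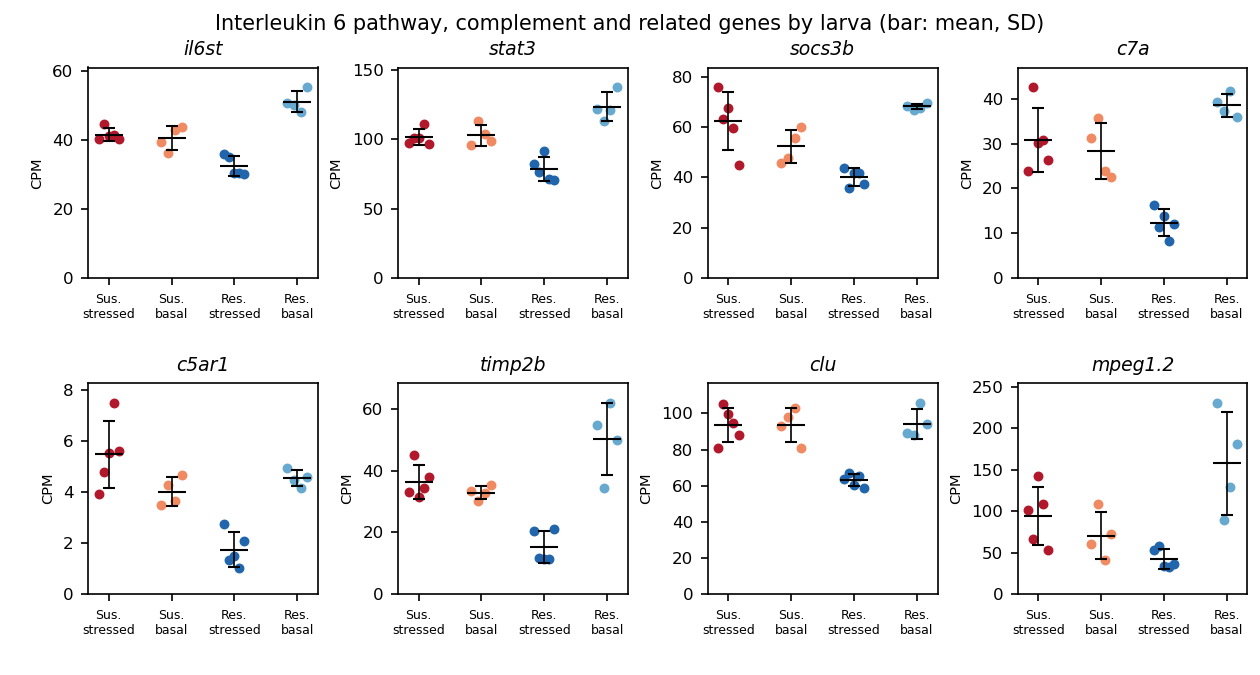
Level in CPM of 8 genes in every larva (points), by group, with the group mean and SD (bars). Resilient stressed larvae lie below all resilient basal larvae in each panel, as in c7a at 8.22 to 16.4 against 35.9 to 41.8 CPM, whereas the susceptible groups overlap in each. Of all genes tested, 4.36% had resilient stressed larvae below all basal ones, and these 8 genes were chosen with results of the same larvae known. The genes clu and mpeg1.2 were not called.

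The called genes with a higher difference also included dysf, tln2a, synpo and hspb1, which come from no common list. The gene dysf encodes dysferlin, which is needed to reseal torn muscle membranes. It had 20.9, 32.4, 36.5, 26.0 and 26.0 CPM in susceptible stressed larvae and 20.3, 22.3, 26.2 and 27.4 CPM in susceptible basal larvae. In resilient stressed larvae it had 17.1, 14.7, 18.4, 13.7 and 16.7 CPM, against 32.1, 31.3, 33.6 and 37.6 CPM in resilient basal larvae. The resilient groups were separate by a wide margin and the difference was 1.3 ± 0.20 (SE, adjusted p = 0.0127).

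The talin gene tln2a, whose product links integrins to actin, had 19.2, 25.4, 24.3, 22.6 and 21.7 CPM in susceptible stressed and 17.2, 20.3, 22.2 and 22.5 CPM in susceptible basal larvae. It had 16, 12.8, 16.9, 16.5 and 15.3 CPM in resilient stressed larvae, against 33.9, 27.2, 26.0 and 30.7 CPM in resilient basal larvae. Its difference was 1.07 ± 0.15 (SE, adjusted p = 0.0117), and both dysf and tln2a stayed called in all 18 fits that left out 1 larva. The actin-associated gene synpo had a difference of 0.84 ± 0.16 and hspb1, which encodes a small heat shock chaperone, one of 1.49 ± 0.28 (adjusted p = 0.0459 for each). For hspb1 the group averages were 44.7 ± 11.3 CPM in susceptible stressed and 45.1 ± 3.53 CPM in susceptible basal larvae, against 18.5 ± 5.41 CPM in resilient stressed and 52.3 ± 7.79 CPM in resilient basal larvae (SD). Both of these calls ended in 12 of 18 fits, at adjusted p up to 0.106. Among 22 heat shock genes hspb1 was the called one, and the list's median was 0.27. Unadjusted p was below 0.05 in 8 of the 22 and DESeq2 called 3. Over all genes tested these shares were 13.1% and 2.21%, and edgeR called 0.141%. The laminin gene lamb2 (0.71 ± 0.14) and the calpain gene capn2a (1.38 ± 0.27) lay just outside the threshold, each at an adjusted p of 0.0526.

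Slow muscle genes had lower differences in tnnt1 and mybpc1, where the estimated responses differed in sign as in all 16 lower genes. In some of the 16 the susceptible response was within its error of zero, as in asb10 at -0.04 ± 0.19 (SE). By edgeR the susceptible response was called in none of the 16, with adjusted p = 0.4 in tnnt1 and 0.25 in mybpc1. The resilient response was called in tnnt1 (adjusted p = 0.0127) and not in mybpc1 (adjusted p = 0.0581). The gene tnnt1 encodes the troponin T of slow fibres. Its level was 12.8, 14.4, 13, 13.7 and 14.3 CPM in susceptible stressed larvae, against 23.1, 15.5, 22.3 and 16.1 CPM in susceptible basal larvae. It was 20.9, 22.2, 22.5, 32.9 and 26.6 CPM in resilient stressed larvae, against 12.2, 17.9, 16.5 and 15.5 CPM in resilient basal larvae. Stressed larvae thus lay below all basal larvae among susceptible fish and above them among resilient fish, with responses of -0.49 and 0.69 and a difference of -1.18 ± 0.21 (SE, adjusted p = 0.0418).

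The gene mybpc1 encodes the slow myosin-binding protein C. It had 30.8, 26.9, 40.6, 34.1 and 35.8 CPM in susceptible stressed larvae, against 52.3, 46.7, 42.3 and 42.1 CPM in susceptible basal larvae. It had 53.4, 50.5, 54.0, 53.0 and 51.1 CPM in resilient stressed larvae, against 45.6, 43.1, 41.6 and 37.6 CPM in resilient basal larvae. Again neither archetype's groups overlapped, and the difference was -0.77 ± 0.14 (SE, adjusted p = 0.0418). The call of tnnt1 ended in 7 and that of mybpc1 in 10 of 18 fits, at adjusted p up to 0.104. Of 22 slow and cardiac muscle genes these 2 were called, against 0.141% of all genes tested. In the list 15 values were negative and the median was -0.22, which turned to 0.01 without susceptible basal larvae 1 and 2. Unadjusted p was below 0.05 in 4 of the 22, against 13.1% of all genes tested, and DESeq2 called 2, against 2.21%. The gene tnnt2c, by its name also a troponin T gene, was outside this list and had a positive difference, 1.81 ± 0.36 (SE). It was not called by edgeR (adjusted p = 0.0566) and was called by DESeq2 (adjusted p = 0.00043). Resilient stressed larvae had 5.93 to 9.95 CPM of tnnt2c, against 14.4 to 23.6 CPM in resilient basal larvae, and the susceptible groups overlapped. The 20 fast muscle genes had a median of -0.15 with 15 negative values and 0 called by edgeR or DESeq2. Unadjusted p was below 0.05 in 4 of the 20, against 13.1% of all genes tested.

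Among 19 genes of muscle protein breakdown and ubiquitin, 14 were negative, with a median of -0.42. In this list asb10 was called, against 0.141% of all genes tested. The gene asb10 encodes an ankyrin repeat protein with a SOCS box, a domain found in ubiquitin ligase adaptors. Its level was 10.1, 8.47, 13.1, 9.19 and 12.2 CPM in susceptible stressed and 12.2, 9.87, 11.4 and 10 CPM in susceptible basal larvae. It was 20.5, 26.9, 25.3, 19.2 and 18.2 CPM in resilient stressed larvae, against 9.96, 8.5, 4.24 and 8.86 CPM in resilient basal larvae. The resilient groups were far apart and the susceptible groups overlapped, with a difference of -1.52 ± 0.27 (SE, adjusted p = 0.0423) that lost its call in 8 of 18 fits, at adjusted p up to 0.097. The muscle ubiquitin ligase gene fbxo32 had a difference of about the same size, -1.54 ± 0.44, and was not called (adjusted p = 0.14). Its level was 160 to 265 CPM in resilient stressed larvae, against 22.9 to 110 CPM in resilient basal larvae. The polyubiquitin gene ubb was close to the threshold at -1.20 ± 0.24 (adjusted p = 0.0547). In this list 9 genes had an unadjusted p below 0.05, against 13.1% of all genes tested, and 6 were called by DESeq2, against 2.21%. The gene psme4a, which encodes a proteasome activator, belongs to a separate list and was at -1.56 ± 0.48 (adjusted p = 0.173). The 34 proteasome genes of that list were split 15 positive to 19 negative, with a median of -0.03.

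The called genes with a lower difference also included the metabolic enzyme genes pfkfb1, prodha and gls2b and the transporter gene slc16a12b. The enzyme encoded by pfkfb1 sets the level of fructose 2,6-bisphosphate, which switches liver and muscle between glycolysis and gluconeogenesis. It had 11.8, 14.1, 10.9, 11.4 and 13.9 CPM in susceptible stressed larvae, against 15.8, 14.5, 15.3 and 19.4 CPM in susceptible basal larvae. In resilient stressed larvae it had 18.4, 25.4, 25.3, 21.4 and 24.7 CPM, against 13.9, 13.3, 12.8 and 11.7 CPM in resilient basal larvae. Neither pair of groups overlapped. The responses were -0.38 in susceptible and 0.83 in resilient larvae, and the difference was -1.22 ± 0.16 (SE, adjusted p = 0.00666), called in all 18 fits that left out 1 larva. It was the called gene among 27 of glycolytic control and gluconeogenesis, whose median was -0.02. Unadjusted p was below 0.05 in 4 of the 27 and DESeq2 called 1. Over all genes tested these shares were 13.1% and 2.21%, and edgeR called 0.141%.

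The enzymes of prodha and gls2b feed amino acids into mitochondrial metabolism, the first by oxidizing proline and the second by releasing ammonia from glutamine. The gene prodha had 52.0, 71.1, 69.7, 57.6 and 91.9 CPM in susceptible stressed and 82.7, 72.2, 74.1 and 70.5 CPM in susceptible basal larvae. It had 142, 141, 179, 151 and 98.6 CPM in resilient stressed larvae, against 45.2, 74.7, 67.6 and 64.5 CPM in resilient basal larvae. The difference was -1.3 ± 0.25 (SE, adjusted p = 0.0464). In gls2b the group averages were 14 ± 1.92 CPM in susceptible stressed and 15.7 ± 1.39 CPM in susceptible basal larvae, against 22.0 ± 3.21 CPM in resilient stressed and 11.7 ± 2.79 CPM in resilient basal larvae (SD). Its difference was -1.07 ± 0.21 (SE, adjusted p = 0.0464).

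The monocarboxylate transporter family gene slc16a12b averaged 23.1 ± 1.88 CPM in susceptible stressed and 30.4 ± 5.88 CPM in susceptible basal larvae, against 48.4 ± 7.97 CPM in resilient stressed and 26.0 ± 7.42 CPM in resilient basal larvae (SD). Its difference was -1.29 ± 0.24 (SE, adjusted p = 0.0459). In all 3 genes the resilient groups were separate and the susceptible groups overlapped. Their calls ended in 13, 13 and 12 of 18 fits for prodha, gls2b and slc16a12b, at adjusted p up to 0.109.

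**Figure D3:**
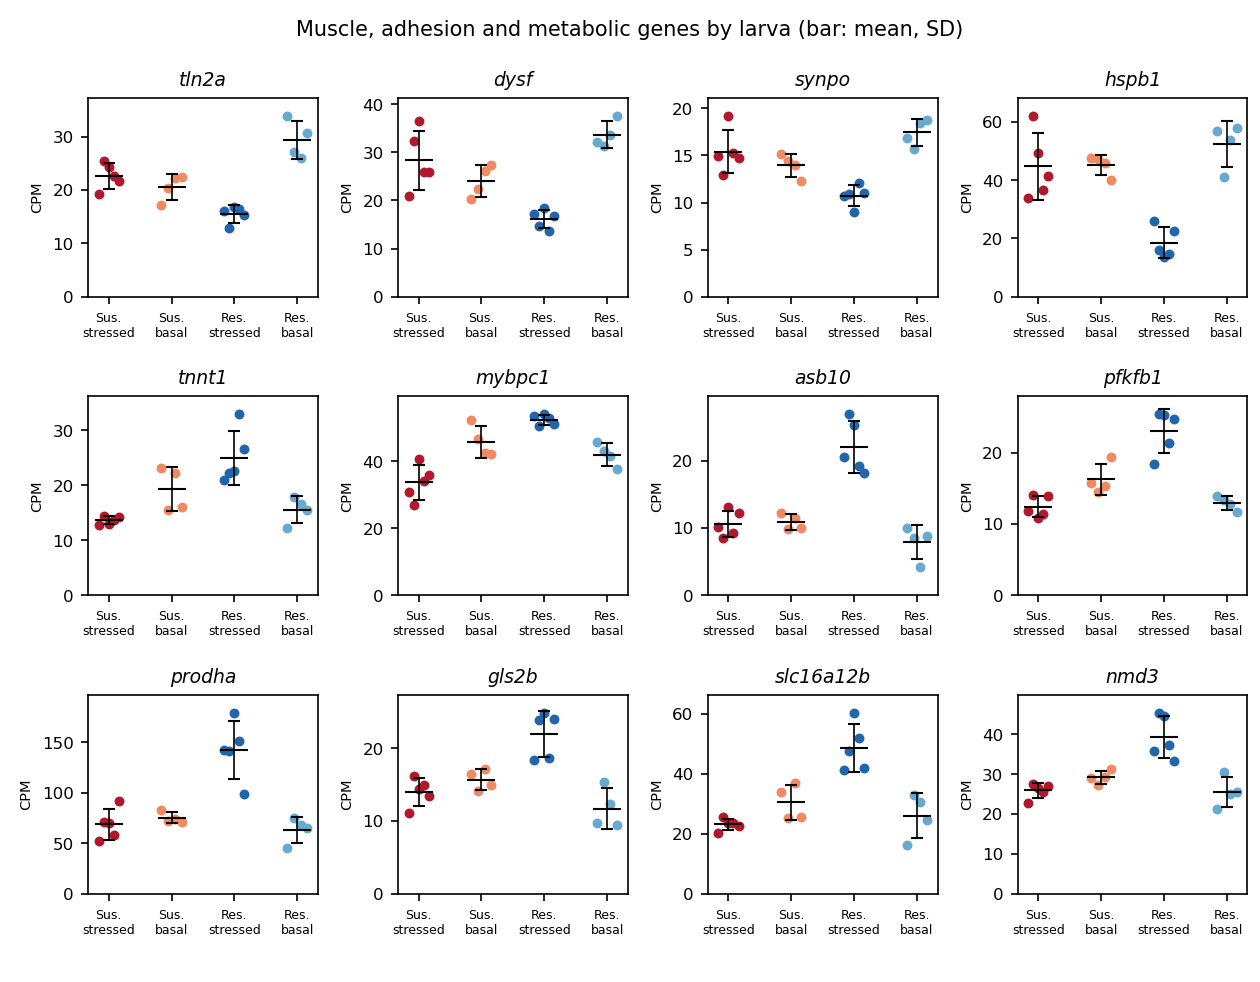
Level in CPM of 12 called genes in every larva (points), by group, with the group mean and SD (bars). Resilient stressed larvae lie below all resilient basal larvae in tln2a, dysf, synpo and hspb1 and above them in the other 8, and susceptible stressed larvae lie below all susceptible basal larvae in tnnt1, mybpc1 and pfkfb1, as in pfkfb1 at 10.9 to 14.1 against 14.5 to 19.4 CPM. Over all genes tested these shares were 4.36%, 4.11% and 1.43%, and the same larvae chose the 12 genes.

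The smallest adjusted p of all belonged to zgc:63694, a gene with no assigned name. It had 9.13, 8.47, 8.36, 10.8 and 14.9 CPM in susceptible stressed and 17.1, 11.4, 10.7 and 14.4 CPM in susceptible basal larvae. It had 25.5, 29.2, 31.9, 26.9 and 23.8 CPM in resilient stressed larvae, against 8.68, 9.24, 11.5 and 8.34 CPM in resilient basal larvae. Resilient stressed larvae were above all other larvae and the difference was -1.92 ± 0.24 (SE, adjusted p = 0.00575), called in all 18 fits that left out 1 larva.

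The genes nmd3, dcun1d2a, ctdsp1, fam207a and fam13b_1 also had lower differences and come from no common list. The gene nmd3, an export adaptor of the large ribosomal subunit, averaged 25.9 ± 1.86 CPM in susceptible stressed and 29.2 ± 1.69 CPM in susceptible basal larvae, against 39.3 ± 5.39 CPM in resilient stressed and 25.5 ± 3.8 CPM in resilient basal larvae (SD). Its difference was -0.79 ± 0.15. The cullin neddylation gene dcun1d2a was at -1 ± 0.18, and the phosphatase gene ctdsp1, which acts on the tail of RNA polymerase II, at -0.67 ± 0.13. The genes fam207a and fam13b_1 were at -0.63 ± 0.12 and -0.68 ± 0.12. Adjusted p was 0.0459 for nmd3, dcun1d2a, ctdsp1 and fam207a and 0.0404 for fam13b_1, whose reads may be shared with another row of the same name.

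The largest negative difference among the called genes was that of upk1a, named for the mammalian uroplakin of bladder epithelium, at -2.80 ± 0.53 (SE, adjusted p = 0.0459). It was barely expressed, with 0.13 to 0.429 CPM in susceptible stressed and 0.447 to 1.14 CPM in susceptible basal larvae, against 0.868 to 1.25 CPM in resilient stressed and 0.255 to 0.608 CPM in resilient basal larvae. The called genes LOC100001991 and si:ch211-87m7.1 also had lower differences, of -1.54 ± 0.27 and -0.90 ± 0.17. On the higher side si:ch211-198c19.3 had 2.95 ± 0.57, at 1.69 CPM on average, LOC100535166 had 1.14 ± 0.22 and si:ch211-106a19.1_1 had 1.35 ± 0.26. The membrane protein gene tmem176l.4 was at 1.15 ± 0.22 and ftr63, of the fish-specific family of TRIM genes, at 1.34 ± 0.25. The adjusted p of these 7 genes was 0.0418 to 0.0469. Both tmem176l.4 and ftr63 belong to families with near-identical copies, between which reads may be split.

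In ftr63 the susceptible response was the larger part. It had 4.83, 5.29, 3.94, 4.56 and 3.65 CPM in susceptible stressed larvae, against 1.96, 2.79, 3.39 and 2.71 CPM in susceptible basal larvae. It had 2.51, 2.47, 2.37, 2.01 and 2.52 CPM in resilient stressed larvae, against 4.11, 4.03, 2.46 and 3.73 CPM in resilient basal larvae. The susceptible groups were separate and the resilient groups overlapped through 1 basal larva, with responses of 0.74 and -0.60. The calls of the genes in these 3 paragraphs other than zgc:63694 ended in 7 to 14 of 18 fits, at adjusted p up to 0.111.

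Immediate early genes, which are switched on within minutes in active neurons and other cells, had no called difference. The transcription factor gene egr1 had 57.1, 47.4, 31.3, 34.6 and 44.1 CPM in susceptible stressed larvae, against 24.0, 23.2, 30.5 and 26.7 CPM in susceptible basal larvae. It had 50.8, 60.9, 65.5, 91.9 and 56.2 CPM in resilient stressed larvae, against 33.6, 27.3, 26.9 and 27.6 CPM in resilient basal larvae. Stressed larvae were above all basal larvae in both archetypes, with responses of 0.72 and 1.18. The difference was -0.45 ± 0.25 (SE, adjusted p = 0.468), which does not show that the archetypes responded alike. The related gene ier2a gave -0.52 ± 0.32 (adjusted p = 0.524), fosab of the AP-1 family -0.34 ± 0.64 (adjusted p = 0.874) and the neuronal activity gene npas4a -0.53 ± 0.26 (adjusted p = 0.395). Across 23 tested genes of a list that joins the Egr, Ier2 and Nr4a families with other activity-induced genes, such as npas4a, dusp1, btg2 and the Klf genes, the median was -0.24, with 17 negative values and 0 called by edgeR, 0 at an unadjusted p below 0.05 and 0 by DESeq2. Across 10 AP-1 genes the median was 0.49, with 8 positive values and 0 called by edgeR or DESeq2. Unadjusted p was below 0.05 in 2 of the 10, against 13.1% of all genes tested.

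The hormonal stress axis likewise had no called gene among the 11 of its 21 listed genes that were tested; nr3c1, which encodes the cortisol receptor, and 5 others were not analysed here because their symbols matched no row. Corticotropin-releasing hormone starts the axis, and its gene crhb had 8.7, 8.43, 5.84, 9.12 and 8.12 CPM in susceptible stressed and 7.55, 6.81, 8.35 and 6.58 CPM in susceptible basal larvae. It had 8.46 to 10.7 CPM in resilient stressed larvae, against 4.94 to 7.38 CPM in resilient basal larvae. The resilient groups were separate and the susceptible groups overlapped, and the difference was -0.49 ± 0.19 (SE, adjusted p = 0.286). The 11 tested axis genes had a median of -0.17, with 0 called by edgeR or DESeq2. Unadjusted p was below 0.05 in 3 of the 11, against 13.1% of all genes tested.

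The glucocorticoid target fkbp5, a co-chaperone gene of the cortisol receptor, differed widely between larvae of a group. It had 8.59, 72.6, 37.5, 30.9 and 15.2 CPM in susceptible stressed larvae, against 130, 244, 164 and 208 CPM in susceptible basal larvae. It had 79.5, 24.0, 171, 131 and 68.6 CPM in resilient stressed larvae, against 143, 382, 286 and 385 CPM in resilient basal larvae. Stressed larvae had the lower mean in both archetypes, and only the susceptible groups were separate. The difference of -0.84 ± 0.80 (SE, adjusted p = 0.714) is about as large as its own error. Of 17 glucocorticoid targets 11 were negative, with a median of -0.41 and 0 called by edgeR. Unadjusted p was below 0.05 in 5 of the 17, against 13.1% of all genes tested, and DESeq2 called 1, against 2.21%. The target zbtb16b, a zinc finger gene, was at -1.40 ± 0.36 (adjusted p = 0.1) and per1a, of the circadian clock, at -1.11 ± 0.37 (adjusted p = 0.205).

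Endoplasmic reticulum chaperones, which fold secreted and membrane proteins, were positive in 20 of 24 genes with a median of 0.69. None was called by edgeR, while 13 had an unadjusted p below 0.05, against 13.1% of all genes, and 12 were called by DESeq2, against 2.21%. The disulfide isomerase gene pdia6 averaged 69.0 ± 22.4 CPM in susceptible stressed and 53.0 ± 10.8 CPM in susceptible basal larvae, against 39.6 ± 9.0 CPM in resilient stressed and 76.4 ± 14.8 CPM in resilient basal larvae (SD). Its difference was 1.32 ± 0.31 (SE, adjusted p = 0.0809). Of 21 tested genes of the integrated stress response, 7 had an unadjusted p below 0.05, against 13.1% of all genes. DESeq2 called 1, against 2.21%, and edgeR called 0. Genes of this response were split 9 positive to 12 negative with a median of -0.02. Its target chac1, which breaks down glutathione, averaged 359 ± 78.7 CPM in susceptible stressed and 473 ± 46.0 CPM in susceptible basal larvae, against 728 ± 166 CPM in resilient stressed and 471 ± 112 CPM in resilient basal larvae (SD), with a difference of -1.03 ± 0.26 (adjusted p = 0.1).

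Proliferation genes and markers of several tissues leaned to one side without calls by edgeR or DESeq2 in most. Of 40 proliferation genes 37 were positive with a median of 0.41 and 0 called by either tool. Unadjusted p was below 0.05 in 7 of the 40, against 13.1% of all genes tested. The gene mcm4, of the replicative helicase, was at 0.78 ± 0.29 (adjusted p = 0.258). The summed level of the 40 genes was 864 to 1690 CPM in susceptible stressed and 1070 to 1590 CPM in susceptible basal larvae, against 575 to 1470 CPM in resilient stressed and 1070 to 1780 CPM in resilient basal larvae, so that neither pair was separate. All 17 exocrine pancreas genes were negative with a median of -0.71, 0 called by either tool and 2 at an unadjusted p below 0.05, against 13.1% of all genes tested. Their summed level was 12100 to 22500 CPM in susceptible stressed and 3710 to 28300 CPM in susceptible basal larvae, against 22200 to 33800 CPM in resilient stressed and 20800 to 26900 CPM in resilient basal larvae. Single larvae differed most in this list, as in the phospholipase gene pla2g1b, where susceptible basal larva 2 had 9.78 CPM and the other 3 had 72.8 to 82.3 CPM.

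Of 22 enterocyte genes 17 were negative with a median of -0.42, and vil1, of the brush border, was at -0.98 ± 0.24 (adjusted p = 0.0845). Of 18 erythrocyte and heme genes 15 were negative with a median of -0.36, which turned to 0.16 without susceptible basal larvae 1 and 2, and the globin gene hbbe1.1 was at -1.51 ± 0.52 (adjusted p = 0.228). Coagulation genes were positive in 15 of 19 with a median of 0.24, and the fibrinogen gene fgb was at 1.45 ± 0.50 (adjusted p = 0.225). Cytosolic ribosomal protein genes were negative in 35 of 36, with a small median of -0.13. Neuron and synapse markers had a median of 0.09 and glia and myelin markers one of -0.07, with the glutamate transporter gene slc1a3a at -0.41 ± 0.10 (adjusted p = 0.0992). None of the genes in these 6 lists was called by edgeR; unadjusted p was below 0.05 in 5, 1, 5, 0, 4 and 5 of them, in the order given, and DESeq2 called 1 enterocyte and 3 glia and myelin genes. Over all genes tested these shares were 13.1% for the unadjusted p and 2.21% for DESeq2. Genes of 1 tissue vary together between larvae, so the count of members on one side of zero is not a count of independent observations.

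**Figure D4:**
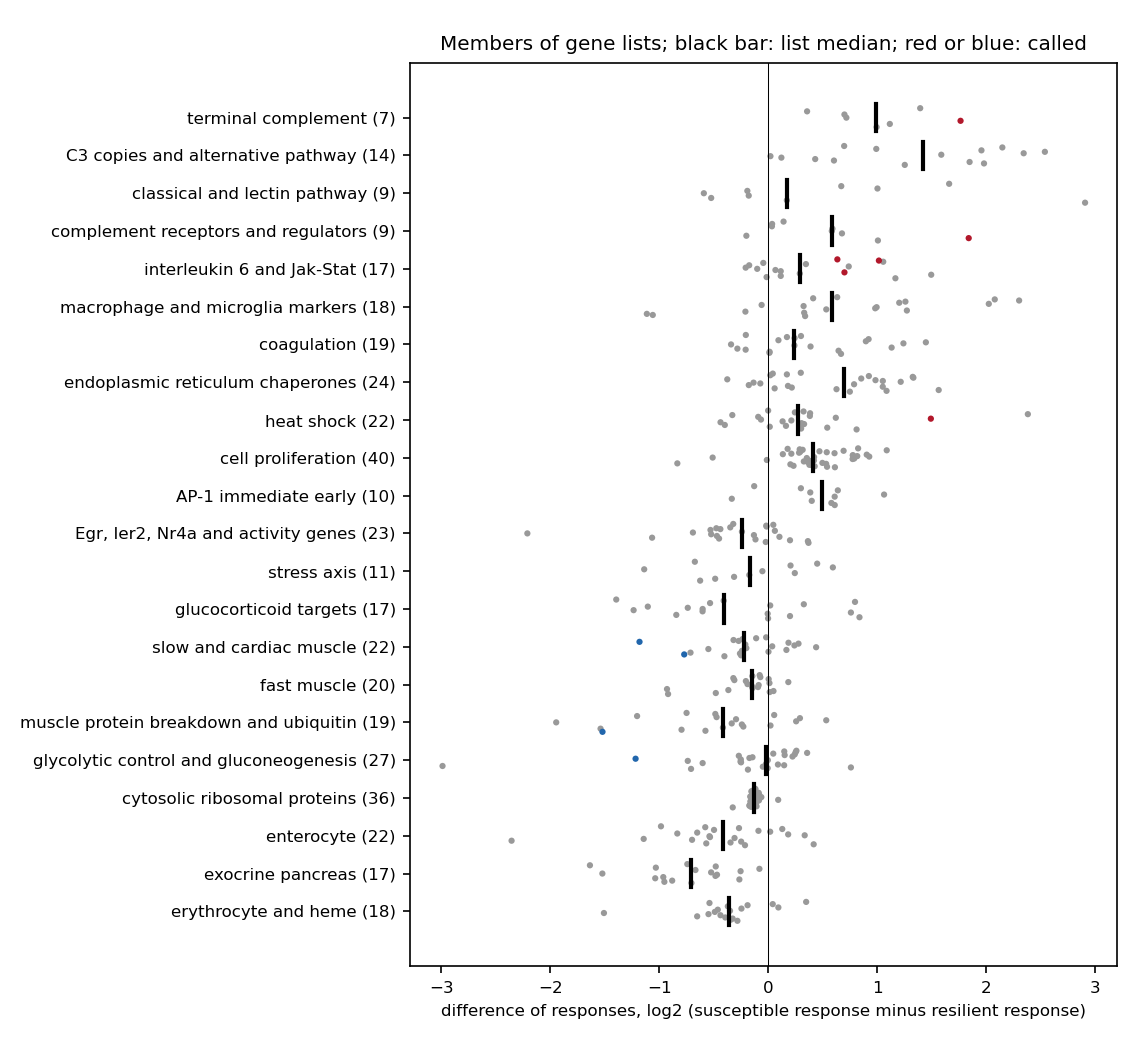
Difference of responses on the log2 scale for each tested member (points) of 22 gene lists, with the list median (black bar) and the number tested in brackets; called genes are red or blue. The terminal complement and C3 lists lie wholly right of zero, with medians of 0.99 and 1.42, and the exocrine pancreas list lies wholly left, with a median of -0.71.

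Across all genes the estimated responses of the archetypes, which share no larva, had almost no correlation. Pearson's r over the 22038 genes was 0.0526, a description in which genes are no replicates and all libraries share 1 normalization. The median absolute response was 0.113 in susceptible and 0.168 in resilient larvae. Error in such small values lowers r, so it does not show that the responses were unrelated. In susceptible larvae alone edgeR called 0 genes for stress, with 1642 (7.45% of those tested) at an unadjusted p below 0.05, 48 called by DESeq2 and 0 by limma-voom. In resilient larvae edgeR called 1399, which is 6.35% of genes, beside 1888 called by DESeq2 and 1628 by limma-voom. The edgeR count changed when single larvae were left out. It was 398 without resilient basal larva 1, 675 without resilient basal larva 3 and 790 without resilient basal larva 4. It was 601 without resilient stressed larva 2 and 604 without resilient stressed larva 3, and at most 1918 among the fits that left out 1 larva. Without resilient basal larvae 1 and 3 it was 38, and without resilient stressed larvae 2 and 3 it was 69. The susceptible count was 13 without susceptible stressed larva 2 and 0 or 1 in the other 17 fits without 1 larva. Of the 608 genes (2.76%) called higher in stressed resilient larvae, 332 (54.6%) had a positive susceptible response, against 49% of all genes. The median was 0.0105 in susceptible larvae and 0.47 in resilient larvae. Of the 791 (3.59%) called lower, 516 (65.2%) had a negative susceptible response, with medians of -0.052 and -0.66 on the log2 scale in susceptible and resilient larvae. Leaving out single larvae moved these shares between 47.0% and 59.7% and between 46.0% and 73.3%. Without susceptible basal larvae 1 and 2 they were 47.6% and 36%, so the second share fell below even odds and no common direction can be read from it.

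The number of calls changed when single larvae were left out. All 31 genes kept the sign of their difference in each of 30 other settings. Those settings reuse the larvae that chose the genes, so the kept signs are no independent support. Over the 18 fits that left out 1 larva, the count ranged from 5 without susceptible basal larva 3 to 132 without resilient basal larva 2. Calls were kept in all 18 fits by 5 genes, zgc:63694, pfkfb1, tln2a, il6st and dysf, and 2 more, c7a and timp2b, lost theirs in 1 fit. The other 24 lost theirs in 4 to 14 fits. Over the 18 fits the estimated difference ran from 0.58 to 0.7 in stat3 and from 1.34 to 1.65 in hspb1. Each fit also had 1 larva fewer in a group, and the part of this in the lost calls was not tested. Leaving out resilient basal larva 2, resilient stressed larva 1, resilient stressed larva 5 or susceptible basal larva 2 ended none of the 31 calls and raised the count to 132, 72, 76 and 119. Leaving out susceptible basal larva 3 ended 26 of the 31, and resilient basal larvae 1 and 4, susceptible basal larva 1 and susceptible stressed larva 4 ended 23 each. Without resilient stressed larvae 2 and 3 there were 6 calls, all among the 31, and without resilient basal larvae 1 and 3 there were also 6, of which 5 were among the 31. DESeq2 called 417 genes, including 29 of the 31, and gave no adjusted p for the other 2, upk1a and si:ch211-198c19.3; limma-voom with sample weights called 65, including 30 of the 31.

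**Figure D5:**
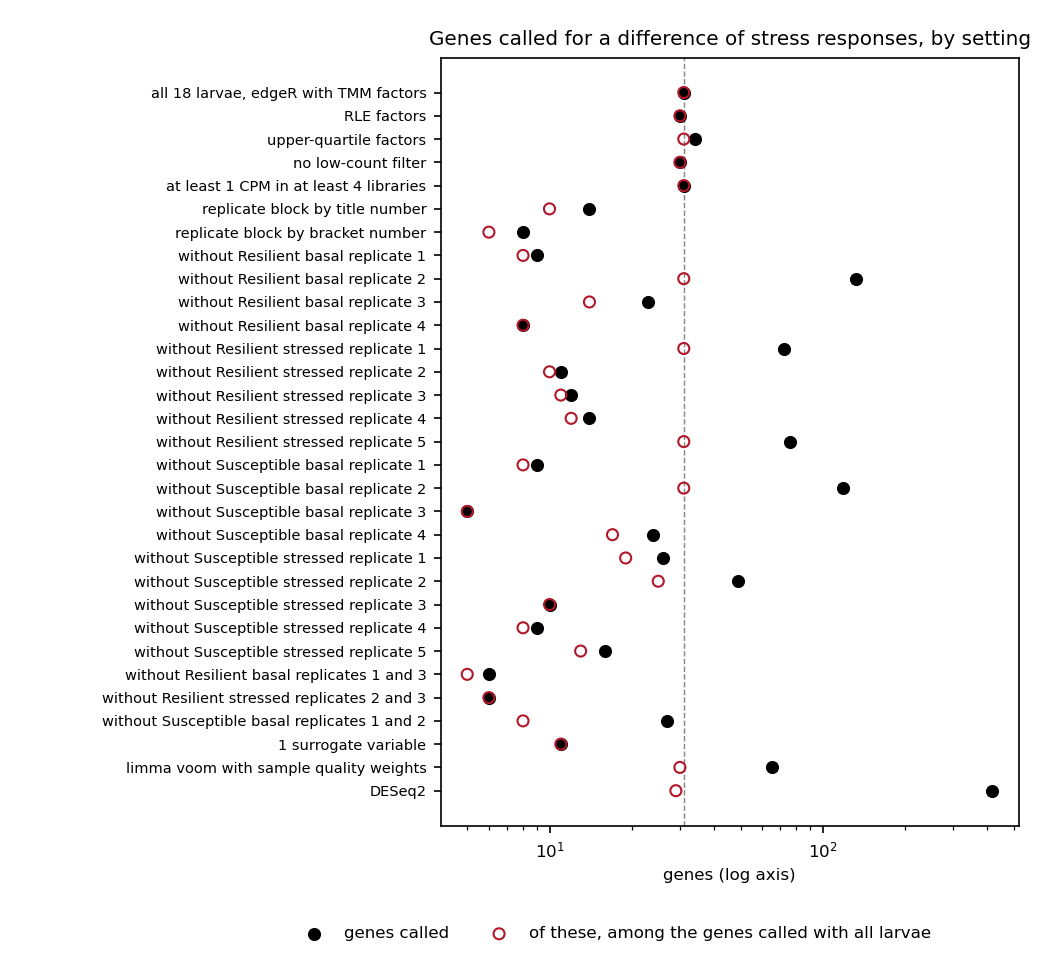
Number of genes called for a difference of responses (black, log axis) and how many of them are among the 31 called with all larvae (red circles), for each way of fitting the data; the dashed line marks 31. The count runs from 5 without susceptible basal larva 3 to 417 by DESeq2.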

How the data were processed

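The data are RNA-seq counts of 18 single larvae. The table deposited by the authors gives raw read counts by gene symbol, per the file headers, and the submitters' processing notes name cutadapt, STAR, DESeq2 and the danRer11 build. No counter, annotation or strand setting is named in these sources, so reads of overlapping and antisense genes cannot be told apart. Another 36 columns of scaled and log values of the same larvae were not used. Of 25281 rows, 15 carried a date in place of a gene name (0.0613% to 0.0698% of reads) and were left out.

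Counts were fitted with edgeR 4.0.16 (R 4.3.3): TMM factors, filterByExpr, 4 group means, robust quasi-likelihood F test and Benjamini-Hochberg adjustment over all genes tested. SE is the absolute log2 value over the square root of F. Each larva is a separate animal, so p-values measure the spread between larvae; no 2 libraries of a group agreed within sampling noise. Group averages are means of CPM with SD.

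The members, the 39 gene lists (873 of 996 entries matched a row) and the named genes were chosen with earlier results of these data known. Named genes had an assigned symbol and at least 1 CPM on average: the 15 smallest p in each direction, the smallest p of each list and a panel of 23; the 7 called genes outside this rule were added after their values were seen. Per list, counts and medians are given and no set test was run. Tested on simulated data over 21846 genes, the fit recovered 14.9%, 52.2% and 87.9% of differences of 0.5, 1 and 2 on the log2 scale, with 4 false calls. In it 200 genes were shifted in susceptible stressed larvae only, and counts varied independently between genes. Real larvae vary in many genes together, so these rates may not hold for them. DESeq2 1.42.0, limma 3.58.1 (voom) and sva 3.50.0 gave alternatives, beside other factors, filters, blocks and left-out larvae.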

Additional observations from a re-analysis of the deposited data

Results flagged for a closer look

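Single larvae stood apart from the rest of their group in 13 of 236 combinations of gene and group (59 genes in 4 groups) by Dixon's test of the gap to the nearest larva, and chance alone gives about 1 in 20. Among susceptible stressed larvae, larva 2 had 108 CPM of pdia6 (others 54.2 to 63.5) and 717 CPM of fgb (others 263 to 335). Among susceptible basal larvae, larva 2 had 16.9 CPM of LOC100535166 (others 19.9 to 20.1) and 9.78 CPM of pla2g1b (others 72.8 to 82.3), and larva 3 had 45.5 CPM of capn2a (others 61.5 to 62.5). Among resilient stressed larvae, larva 3 had 4.79 CPM of LOC100001991 (others 2.72 to 3.13), 435 CPM of ubb (others 268 to 311) and 9.99 CPM of zbtb16b (others 5.21 to 6.5). Larva 1 of that group had 8.46 CPM of crhb (others up to 10.7) and larva 5 had 513 CPM of vil1 (others 324 to 370). Among resilient basal larvae, larva 1 had 33.6 CPM of egr1 (others 26.9 to 27.6) and 74.0 CPM of mcm4 (others 49.6 to 53.3), and larva 2 had 75.7 CPM of pla2g1b (others 32.7 to 32.8). Without susceptible basal larva 2 or resilient basal larva 2 the number of called differences rose to 119 and 132.

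The stress responses of the archetypes differed by a test of the difference itself in the 31 called genes (edgeR, adjusted p below 0.05). The higher differences, on the log2 scale, were 1.07 in tln2a, 0.70 in il6st, 1.3 in dysf, 1.76 in c7a, 1.88 in timp2b, 1.01 in socs3b, 1.84 in c5ar1, 0.63 in stat3, 0.84 in synpo and 1.49 in hspb1. They were 1.15 in tmem176l.4, 1.34 in ftr63, 1.14 in LOC100535166, 2.95 in si:ch211-198c19.3 and 1.35 in si:ch211-106a19.1_1. The lower differences were -1.92 in zgc:63694, -1.22 in pfkfb1, -0.68 in fam13b_1, -1.18 in tnnt1, -0.77 in mybpc1, -1.54 in LOC100001991, -1.52 in asb10 and -1 in dcun1d2a. They were -0.79 in nmd3, -2.80 in upk1a, -0.63 in fam207a, -1.29 in slc16a12b, -0.67 in ctdsp1, -1.3 in prodha, -0.90 in si:ch211-87m7.1 and -1.07 in gls2b.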

How the results depend on the processing

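All 31 called genes kept their sign in each of 30 alternatives, which reuse the larvae that chose the genes, but the number called moved. Counts are given as genes called, then higher and lower. Other scaling factors and low-count filters gave 30 to 34 genes. One surrogate variable gave 11 (8 and 3), limma-voom 65 (28 and 37) and DESeq2 417 (183 and 234). Leaving out single larvae gave 5 to 132 (3 to 73 and 2 to 69). Without resilient stressed larvae 2 and 3 there were 6 (4 and 2), without resilient basal larvae 1 and 3 also 6 (3 and 3), and without susceptible basal larvae 1 and 2 there were 27 (18 and 9), of which 8 were among the 31. At an absolute log2 value of at least 1, 21 of the 31 remained. The correlation of the responses across genes, 0.0526 with all larvae, was -0.0236 without a filter, -0.0227 by DESeq2, 0.148 with the surrogate variable, -0.1 without resilient basal larvae 1 and 3, 0.00767 without resilient stressed larvae 2 and 3, and -0.022 to 0.122 without single larvae. The cause of these moves was not tested. Larvae of different groups with the same title number deviated together weakly at most (r from -0.257 to 0.136, over 0.1 in 2 of 25 pairs). The same held for those with the same bracketed number (-0.124 to 0.195, over 0.1 in 4 of 19). Groups were small and no pairs with unlike numbers were compared, so whether the numbers pair larvae is not known. A replicate block by title number gave 14 calls (9 and 5) and one by bracketed number gave 8 calls (6 and 2). Of 39 list medians, 27 kept their sign in all 30 alternatives. The other 12 reached or crossed zero in at least 1: classical and lectin complement, glycolytic control, slow and cardiac muscle, integrated stress response, heat shock, neutrophils, erythrocytes, monoamine neurons, photoreceptor and lens, respiratory chain, proteasome and lipid metabolism. With 4 or 5 larvae a group, few differences of 0.5 on the log2 scale were found in the simulation.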
